A study of Homo sapiens with 3 samples.

Results

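The interferon-stimulated genes described here are 45 named genes that type I and type III interferons are known to switch on, followed in 3 droplet libraries of BxPC-3 cells. A gene was kept when its mean over the libraries reached 1 CPM (count of UMIs per 1e+06 UMIs in cells, where a UMI is a unique molecular identifier which stands for 1 captured RNA molecule), and 44 of the 45 were kept. Over all genes, 12238 of 33694 features passed the same floor. IRF7, a transcription factor of the interferon response, was the member outside it, with a mean of 0.0412 CPM from 2 UMIs in the double-positive, 3 in the single-positive and 2 in the parental library. GBP2 was the member just inside it, with a mean of 3.62 CPM. Within each library, genes held by few cells were then separated from genes spread over all cells.

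BxPC-3 is an established human cell line from an adenocarcinoma of the pancreatic duct. Per the series' design text, EGFP-expressing and mCherry-expressing cancer cells were mixed, cell-in-cell structures (one cell enclosed in another) were induced in suspension, and the cells were sorted. Double-positive (DP) cells carried both signals (EGFP+/mCherry+), single-positive (SP) cells carried 1 of them (EGFP+/mCherry- or EGFP-/mCherry+), and parental cells were the third group. Each group had 1 library, made after expansion of the cells with the 10x 5' kit of version 2. How the 2 colours were combined in the single-positive library, and whether parental cells went through suspension, is not stated in the sources used here.

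Interferons are secreted when a cell senses foreign or misplaced nucleic acid. Type I interferons bind IFNAR1 and IFNAR2, and type III interferons bind IFNLR1 and IL10RB, and both act through the kinases JAK1 and TYK2. These activate a complex that holds STAT2 and IRF9 and binds the interferon-stimulated response element (ISRE) in the promoters of many target genes. Those targets include genes for antiviral proteins, and epithelial tumour lines often keep some of them on without added interferon.

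The libraries held 1940 double-positive, 1291 single-positive and 2409 parental cells, taken as barcodes with at least 6500 UMIs. Their median depth was 29963.5 UMIs in double-positive, 38137 in single-positive and 23290.0 in parental cells, and the median mitochondrial share was 2.08% of UMIs in DP, 1.30% in SP and 0.947% in parental cells. All 9 epithelial markers were above 1 CPM and summed to 7758 CPM in double-positive, 8550.5 CPM in single-positive and 8353 CPM in parental cells. Immune markers (7 genes, PTPRC at 0) summed to 4.61 CPM in DP, 3.86 in SP and 5.75 in parental cells, fibroblast markers (6 genes, COL1A2 at 0) to 2.14 CPM in DP, 1.92 in SP and 2.30 in parental cells, and endothelial markers (5 genes, KDR at 0) to 0.278 CPM in DP, 0.377 in SP and 0.470 in parental cells. Of the cell barcodes, the double-positive library shared 1 with the single-positive and 6 with the parental library, and the single-positive shared 1 with the parental. Since every group was a single library, no difference between groups has a replicate check and none was tested. All intervals are exact 95% intervals that cover counting error only.

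The members differed widely in how their RNA was spread over cells. The antiviral gene IFIT2 had most of its RNA in 1% of the cells of every library, with OASL and RSAD2 next to it, while IFI27, IFI6, IFITM2, IFITM3, BST2, EIF2AK2 and IRF9 were spread about as cell depth alone gives. The measure was the share of a gene's UMIs in the 1% of cells that held most of it (20 double-positive, 13 single-positive and 25 parental cells), set against the share that a Poisson spread in proportion to cell depth gives. A gene was called held by few cells when its share exceeded that expectation by at least 10 percentage points. It was called spread when the excess was under 2 points and at least 90% of the expected cells had a UMI, and intermediate otherwise. Of the 44 members, 10 were held by few cells in double-positive, 16 in single-positive and 12 in parental cells. Beside these counts, the share of all 12238 genes held by few cells was 2.95% in DP, 3.96% in SP and 3.06% in parental cells. Of the 44, 14 were spread in DP, 7 in SP and 13 in parental cells, where the share of all genes was 74.9% in DP, 70.8% in SP and 76.5% in parental cells. The remaining members were intermediate, 20 in DP, 21 in SP and 19 in parental cells, where the share of all genes was 22.1% in DP, 25.3% in SP and 20.4% in parental cells.

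The members held by few cells in all 3 libraries were 10 genes: IFIT1, IFIT2, IFIT3, OASL, ISG20, RSAD2, CMPK2, HERC5, DDX58 and GBP4. IFIH1 was held by few cells in single-positive and parental cells, IRF1 in parental cells, and DDX60, GBP1, MX1, PARP14 and USP18 in single-positive cells. Without the single-positive cell described further on, the single-positive count was 10, which were these same 10 genes. The 7 members spread in all 3 libraries were those named above. The 12 members that were intermediate in all 3 libraries were GBP2, IFI44, IFI44L, IFIT5, ISG15, MX2, OAS1, OAS3, SAMD9, SAMD9L, STAT2 and TRIM22.

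**Figure D1:**
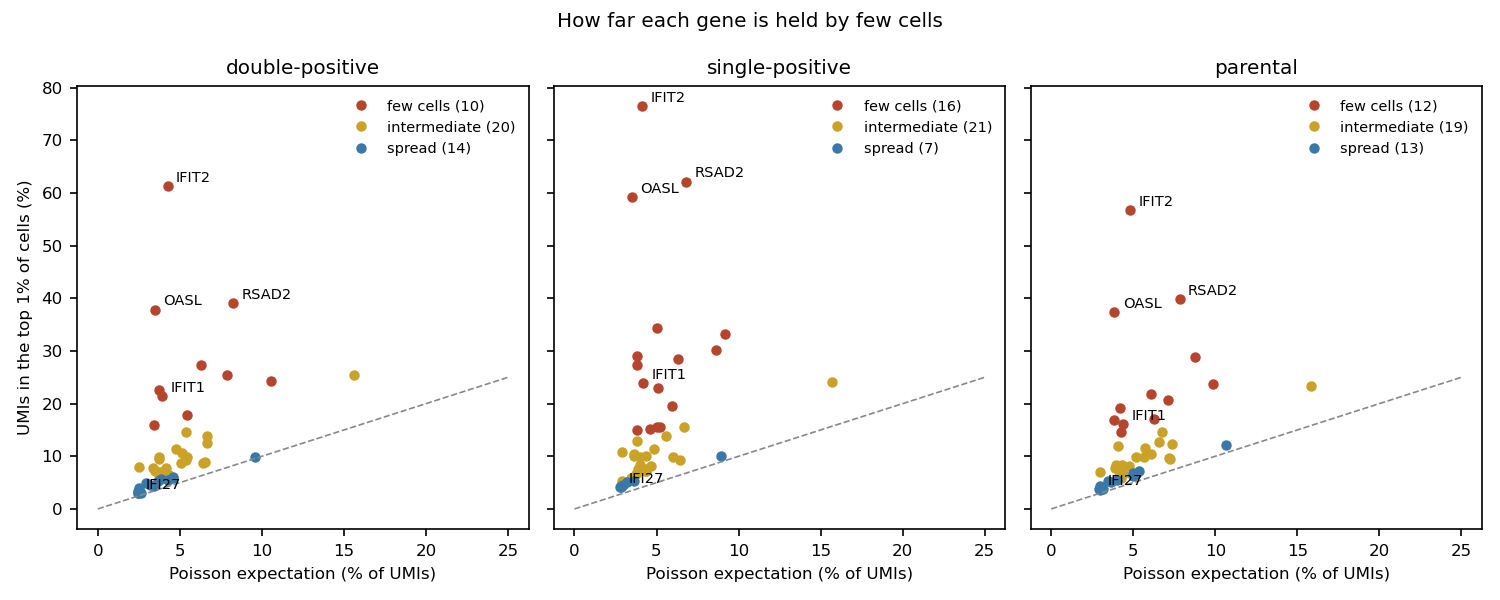
For each of the 44 members in each library, the share of its UMIs in the 1% of cells holding most of it (vertical axis, %) against the share expected from a Poisson spread by cell depth (horizontal axis, %), with a dashed line where both are equal. IFIT2 lies highest in every panel, at 61.2% in double-positive, 76.5% in single-positive and 56.7% in parental cells, and the spread members lie along the line.

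The IFIT proteins bind viral or otherwise unusual RNA ends and block its translation, and their genes lie side by side on chromosome 10. IFIT2 (ENSG00000119922, chromosome 10, 89283694 to 89309276, plus strand, GRCh38) had 53.1 CPM in double-positive, 60.8 CPM in single-positive and 55.8 CPM in parental cells. These levels were close to each other, yet a UMI of IFIT2 was found in 16.2% of double-positive, 18.4% of single-positive and 19.6% of parental cells, where a Poisson spread gives 77.3% in DP, 82.2% in SP and 71.9% in parental cells. At least 50% of all IFIT2 UMIs lay in 14 double-positive, 3 single-positive and 18 parental cells. The single highest cell held 341 IFIT2 UMIs in the double-positive, 1225 in the single-positive and 300 in the parental library. For free RNA, the gene profile was taken from barcodes with at most 100 UMIs. The amount per droplet was the mean of the 10000 largest barcodes under 3000 UMIs, 41.8 UMIs in DP, 37.8 in SP and 34.5 in parental droplets. On this estimate free RNA would place an IFIT2 UMI in 0.177% of DP, 0.221% of SP and 0.268% of parental droplets. The part of free RNA in the cells was not tested.

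IFIT1 and IFIT3 were less concentrated than IFIT2. IFIT1 had 68.8 CPM in double-positive, 57.9 CPM in single-positive and 78.6 CPM in parental cells, and its top 1% of cells held 21.4% of UMIs in DP, 23.9% in SP and 16.2% in parental cells. IFIT3 had 83.0 CPM in DP, 83.2 in SP and 93.6 in parental cells, with 22.6% of UMIs in the top 1% in DP, 29% in SP and 19.2% in parental cells. Both were found in more than 54% of cells of each library, so a low level in many cells lay beside a high level in few. IFIT5, which lies next to IFIT1, was intermediate: 18.3 CPM in double-positive, 17.5 CPM in single-positive and 18.7 CPM in parental cells, with 8.68% of UMIs in the top 1% in DP, 9.31% in SP and 9.56% in parental cells against an expected 6.42% in DP, 6.40% in SP and 7.24% in parental cells.

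OASL, a relative of the oligoadenylate synthetases that enhances RIG-I signalling, came next to IFIT2 with RSAD2. OASL had 106 CPM in double-positive, 124 CPM in single-positive and 135 CPM in parental cells, and its top 1% of cells held 37.8% of UMIs in DP, 59.2% in SP and 37.3% in parental cells. At least 50% of OASL UMIs lay in 35 double-positive, 8 single-positive and 41 parental cells. RSAD2, which encodes viperin, an enzyme that makes a chain-terminating nucleotide, had 12.5 CPM in DP, 14.3 in SP and 16.5 in parental cells, with 39.1% of UMIs in the top 1% in DP, 62.1% in SP and 39.8% in parental cells. CMPK2, a mitochondrial nucleotide kinase encoded head to head with RSAD2 on chromosome 2, had 6.85 CPM in DP, 7.35 in SP and 9.44 in parental cells and 24.3% of UMIs there in DP, 33.1% in SP and 23.7% in parental cells. The gene models of CMPK2 and RSAD2 overlap on opposite strands, and no source used here gives the strand setting of the counting. By contrast OAS1, OAS2 and OAS3, which activate RNase L when they meet double-stranded RNA, had between 6.24% and 10.0% of their UMIs in the top 1% of any library.

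The other members held by few cells throughout had more varied roles. ISG20, an exonuclease that degrades single-stranded RNA, had 16.0% of its UMIs in the top 1% of double-positive, 27.3% of single-positive and 16.9% of parental cells. HERC5, the main ligase that attaches ISG15 to proteins in human cells, had 27.4% in DP, 28.5% in SP and 20.6% in parental cells. DDX58, which encodes the RNA sensor RIG-I, had 17.9% in DP, 34.3% in SP and 21.8% in parental cells, and GBP4, a guanylate-binding GTPase, had 25.4% in DP, 30.2% in SP and 28.9% in parental cells. IFIH1, the sensor MDA5, had 14.7% in DP, 22.9% in SP and 17.1% in parental cells, so that it lay just short of the limit in double-positive cells, where the expectation was 5.38%.

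The spread members showed none of this. IFI27, a small mitochondrial and nuclear-envelope protein, had a UMI in 100% of double-positive, 100% of single-positive and 99.96% of parental cells, and its top 1% of cells held 2.97% of UMIs in DP, 4.09% in SP and 3.77% in parental cells against an expected 2.44% in DP, 2.80% in SP and 2.92% in parental cells. IFI6, an inhibitor of cell death, had 3.46% in DP, 4.39% in SP and 3.76% in parental cells. IFITM3, which restricts virus entry from endosomes, had 2.94% in DP, 4.08% in SP and 3.64% in parental cells, and BST2, the tether that holds virus particles at the cell surface, had 3.06% in DP, 4.48% in SP and 3.81% in parental cells. IFITM1, IFITM2 and IFITM3 are near-identical in part of their sequence and the IFITM1 and IFITM2 gene models overlap on one strand, so their UMIs may be shared out uncertainly. ISG15, the ubiquitin-like protein that HERC5 attaches, was found in almost every cell and yet had 7.89% of UMIs in the top 1% of double-positive, 10.9% of single-positive and 7.0% of parental cells, against an expected 2.51% in DP, 2.88% in SP and 3.0% in parental cells.

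**Figure D2:**
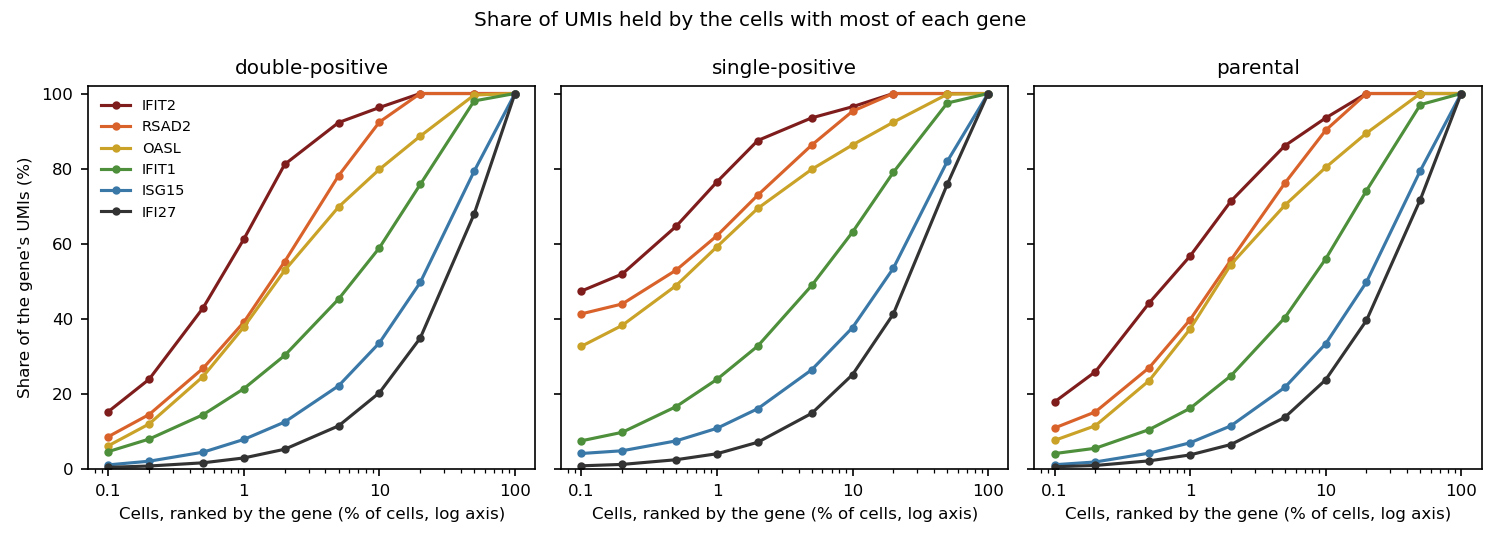
The share of a gene's UMIs (vertical axis, %) held by the cells with most of it (horizontal axis, % of cells on a log scale, rounded up to whole cells) for 6 members in each library. The IFIT2 curve reaches 61.2% in double-positive, 76.5% in single-positive and 56.7% in parental cells at 1% of cells, while the IFI27 curve is at 2.97% in DP, 4.09% in SP and 3.77% in parental cells.

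Promoter sequences were compared between the ends of this range, that is members held by few cells and members spread over all. RefSeq promoters of build GRCh38.p14, from 250 bases before to 50 after the start, were matched for 35 of the 45 members. The ISRE was searched as GAAA, then 2 bases of any kind, then GAAA, and the gamma-activated site as TTC, then 3 bases of any kind, then GAA, on both strands and with overlapping matches counted. At least 1 ISRE match was present in 23 of the 35 promoters, against 3.57% of all 35116 promoters, and at least 2 in 14 of the 35, against 0.259% of all. A gamma-activated site match was present in 8 of the 35, against 7.66% of all promoters. By distribution, 5 of the 7 matched members held by few cells in all 3 libraries had an ISRE match, as did 5 of the 6 spread in all 3. The 160 bases before the start are printed for 3 members held by few cells in all libraries, for IFIT5 from the same gene cluster, and for 3 members spread in all libraries. Capitals mark ISRE matches on either strand.
IFIT1: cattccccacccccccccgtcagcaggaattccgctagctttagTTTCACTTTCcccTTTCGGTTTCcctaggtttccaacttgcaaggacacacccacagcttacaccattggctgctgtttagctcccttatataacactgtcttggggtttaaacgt
IFIT3: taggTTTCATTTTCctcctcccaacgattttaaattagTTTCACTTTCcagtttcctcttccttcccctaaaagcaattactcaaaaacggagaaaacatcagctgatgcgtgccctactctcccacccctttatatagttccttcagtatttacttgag
HERC5: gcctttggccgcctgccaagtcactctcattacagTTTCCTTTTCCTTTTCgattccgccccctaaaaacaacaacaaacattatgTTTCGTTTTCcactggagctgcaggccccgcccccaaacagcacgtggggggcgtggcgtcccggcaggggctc
IFIT5: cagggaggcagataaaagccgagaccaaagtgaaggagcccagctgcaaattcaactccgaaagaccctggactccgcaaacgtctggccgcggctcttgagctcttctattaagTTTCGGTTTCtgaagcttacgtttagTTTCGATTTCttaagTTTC
IFI27: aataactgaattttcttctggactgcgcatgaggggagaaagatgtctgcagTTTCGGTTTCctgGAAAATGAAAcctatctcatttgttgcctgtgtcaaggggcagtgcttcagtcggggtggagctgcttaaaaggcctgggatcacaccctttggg
IFI6: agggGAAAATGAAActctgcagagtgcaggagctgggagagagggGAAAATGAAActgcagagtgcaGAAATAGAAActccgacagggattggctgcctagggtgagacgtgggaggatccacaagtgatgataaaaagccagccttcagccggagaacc
BST2: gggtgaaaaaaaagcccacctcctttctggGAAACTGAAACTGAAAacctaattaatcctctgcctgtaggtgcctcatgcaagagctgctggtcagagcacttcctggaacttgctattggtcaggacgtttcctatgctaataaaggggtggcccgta

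The stretches lie at chr10:89392463-89392622 for IFIT1, chr10:89327837-89327996 for IFIT3, chr4:88456959-88457118 for HERC5, chr10:89414408-89414567 for IFIT5 and chr14:94110576-94110735 for IFI27, all on the plus strand, and at chr1:27672193-27672352 for IFI6 and chr19:17405631-17405790 for BST2, both on the minus strand. IFIT1 and IFIT3, held by few cells, and IFI27 and BST2, spread over all cells, each had 2 matches in the whole window. HERC5, held by few cells, IFI6, spread, and IFIT5, intermediate, each had 3. The last match of IFIT5 runs past the start, so only its first 4 bases are shown in capitals. Every promoter printed holds 2 or 3 matches, so these 7 are no comparison between the kinds. Over all matched members, 3 of the 7 held by few cells in all libraries had at least 2 ISRE matches, as did 4 of the 6 spread in all. A gamma-activated site match was present in 0 of those 7 and in 3 of those 6. No ISRE match lay in the window of RSAD2 or CMPK2, held by few cells, or of IRF9, spread, and these letters were the only ISRE form searched. Each gene was searched at 1 annotated start, so a match at another start would be missed. The RSAD2 window, chr2:6865635-6865934, lies inside the CMPK2 gene model (6840570 to 6866635).

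The members held by few cells were higher in cells rich in IFIT RNA, though for several of them most RNA lay outside these. Cells were chosen by the IFIT genes alone, as those with at least 3 UMIs of IFIT1, IFIT2 and IFIT3 together after each cell was thinned to 6500 UMIs, and the other 41 members were then compared between these cells and the rest of the same library. The chosen cells were 195 of 1940 double-positive (10.1%, interval 8.75% to 11.5%), 105 of 1291 single-positive (8.13%, 6.70% to 9.76%) and 324 of 2409 parental cells (13.4%, 12.1% to 14.9%). Without thinning the shares were 45.1% in DP, 44.3% in SP and 44.2% in parental cells. The choice is a range and not a type: 180 double-positive, 125 single-positive and 248 parental cells had 2 such UMIs, and 71 DP, 32 SP and 117 parental cells had 3. The median depth of chosen cells was 28876 UMIs against 30084 in the rest of the double-positive library, 42554 against 37893 in the single-positive and 22306.5 against 23504 in the parental. Their median mitochondrial share was 2.04% against 2.08% in double-positive, 1.16% against 1.31% in single-positive and 0.766% against 0.977% in parental cells.

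All 41 members had a higher level in the chosen cells than in the rest in each of the 3 libraries, as did 20.2% of the 10958 genes compared. For IRF9 in single-positive cells (1.36-fold) the interval, 0.982 to 1.85, included 1. At least a 2-fold excess in all 3 libraries was seen for 21 of the 41 members, against 0.84% of all genes. The median of the members' mean fold was 2.56, and that of all genes compared was 0.987. OASL stood at 723 CPM in chosen double-positive cells against 38.7 CPM in the rest, at 1025 against 37.3 CPM in single-positive cells and at 712 against 46.0 CPM in parental cells, folds of 18.7 in DP, 27.5 in SP and 15.5 in parental cells. RSAD2 was higher in the chosen cells by 15.3-fold in DP, 30.7-fold in SP and 14.2-fold in parental cells. HERC5 had 46.7% of its UMIs in the chosen cells in DP, 42.4% in SP and 43.3% in parental cells, GBP4 had 37.8% in DP, 43.3% in SP and 50.3% in parental cells, and ISG20 had 32.6% in DP, 36.2% in SP and 37.9% in parental cells. Without the single-positive cell described below, the single-positive folds were 17.6 for OASL and 15.2 for RSAD2, and 21 of 41 members still had at least 2-fold in all 3 libraries.

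The size of the excess differed between roles. DDX58 was 6.12-fold higher in chosen double-positive, 11-fold in single-positive and 5.79-fold in parental cells, and its fellow sensor IFIH1 was 4.26-fold higher in DP, 5.95-fold in SP and 3.66-fold in parental cells. CMPK2 was 6.78-fold higher in DP, 10.3-fold in SP and 5.59-fold in parental cells, HERC5 8.06-fold in DP, 7.63-fold in SP and 4.99-fold in parental cells, and GBP4 5.58-fold in DP, 7.92-fold in SP and 6.59-fold in parental cells. USP18, the protease that removes ISG15 and dampens the receptor, was 3.56-fold higher in DP, 4.69-fold in SP and 3.42-fold in parental cells, and MX1, a GTPase that traps viral nucleocapsids, was 3.09-fold higher in DP, 4.16-fold in SP and 3.17-fold in parental cells. ISG15 stood at 3333 CPM in chosen double-positive cells against 1173 CPM in the rest, at 2871 against 902 CPM in single-positive cells and at 3001 against 1218 CPM in parental cells. Its folds were thus 2.84 in DP, 3.18 in SP and 2.46 in parental cells. The 3 transcription factors were closer to the rest, STAT2 at 1.89-fold in DP, 2.44-fold in SP and 1.99-fold in parental cells, IRF1 at 1.75-fold in DP, 2.27-fold in SP and 1.80-fold in parental cells, and IRF9 at 1.73-fold in DP, 1.36-fold in SP and 1.40-fold in parental cells. IRF9 is spread in all 3 libraries. The other 6 spread members had the smallest mean folds of the 41: IFI27 was 1.20-fold higher in DP, 1.21-fold in SP and 1.21-fold in parental cells, and BST2, IFITM2, IFITM3, EIF2AK2 (the kinase PKR) and IFI6 were between 1.24-fold and 1.37-fold higher.

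**Figure D3:**
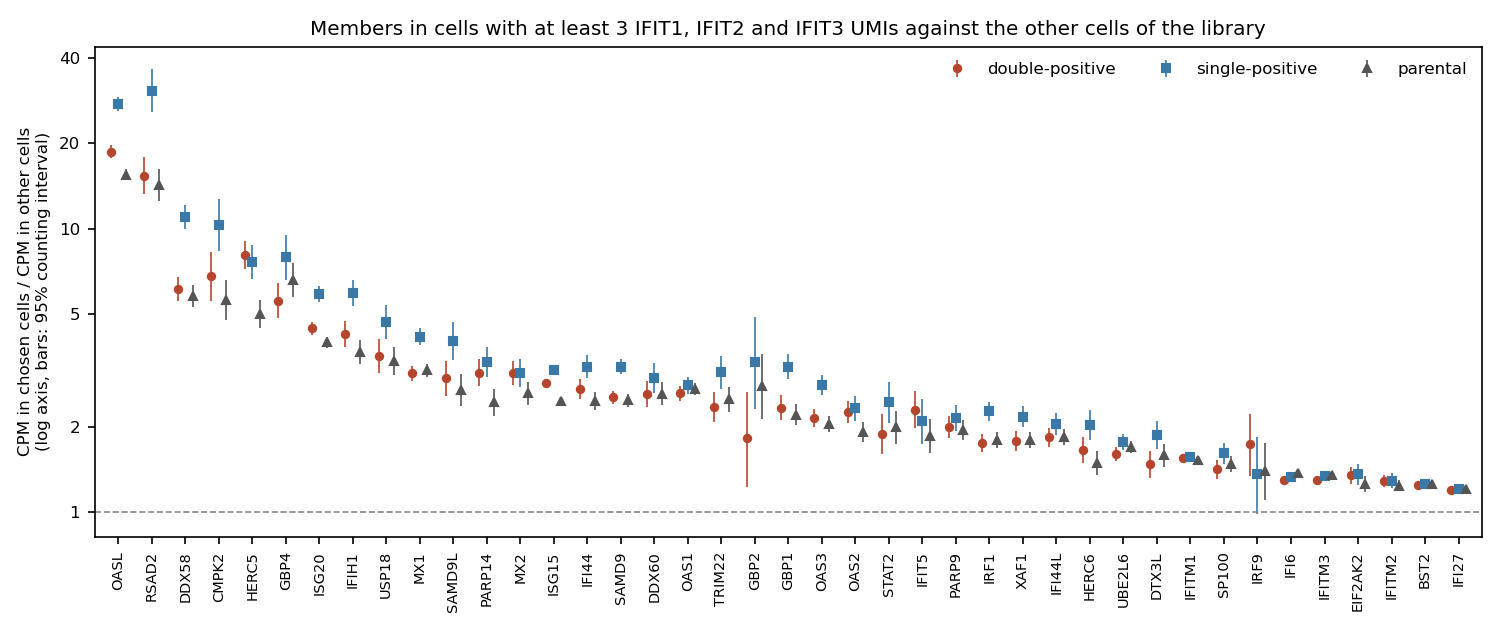
The level of each of 41 members in cells with at least 3 IFIT1, IFIT2 and IFIT3 UMIs divided by its level in the other cells of the library (vertical axis, log scale), with bars for the 95% counting interval, ordered by mean fold. All points lie above 1, from OASL at 18.7-fold in double-positive, 27.5-fold in single-positive and 15.5-fold in parental cells to IFI27 at 1.20-fold in DP, 1.21-fold in SP and 1.21-fold in parental cells.

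OASL and ISG15 were higher in each bin of more IFIT UMIs. OASL was at 30.1 CPM in double-positive cells with no IFIT UMI after thinning, at 53.7 CPM in those with 1 to 2, at 319 CPM with 3 to 9 and at 2014 CPM in the 45 cells with 10 or more. In single-positive cells the 4 levels were 25.9, 57.8, 290.2 and 3359 CPM, and in parental cells 32.9, 65.4, 301 and 2507 CPM. ISG15 had 1035, 1415, 2518 and 5937 CPM in double-positive cells, 781, 1121, 1898 and 5959 CPM in single-positive cells and 1055, 1460.1, 2473 and 5305 CPM in parental cells. The last single-positive bin had 22 cells, and much of its signal came from the single-positive cell described below. That cell held 1683 of the bin's 3574 OASL UMIs and 1782 of its 6340 ISG15 UMIs. IFI27 differed less between the first and the last bin, with 5835 and 7260.5 CPM in double-positive, 4920.1 and 6020 CPM in single-positive and 5936 and 7757 CPM in parental cells. Cells with 10 or more made up 2.32% of double-positive, 1.70% of single-positive and 2.49% of parental cells. In them 24 of the 39 members with enough UMIs were at least 2-fold higher in all 3 libraries, against 1.96% of the 7553 genes compared. GBP2 and IRF9 had too few UMIs for this count, and IRF9 was at 0.936-fold in these single-positive cells, from 8 UMIs.

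Cells chosen by 3 other members also had more of the IFIT genes. OASL and RSAD2 had the largest mean folds in the cells chosen by the IFIT genes, so this second choice is not independent of the first. In cells with at least 3 UMIs of MX1, OASL and RSAD2, IFIT2 was 45.3-fold higher than in the rest of the double-positive, 67.8-fold of the single-positive and 21.0-fold of the parental library. Of the 2738 IFIT2 UMIs in these single-positive cells, 1225 were in the single-positive cell described below. IFIT3 was 6.70-fold higher in DP, 9.16-fold in SP and 5.71-fold in parental cells and IFIT1 was 6.46-fold higher in DP, 7.77-fold in SP and 5.43-fold in parental cells.

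Nearly all RNA of the interferons IFNL1 and IFNB1 was found in the chosen cells. Of 12 interferon genes looked up, IFNL1, a type III interferon, passed the 1 CPM floor, with 2.01 CPM in double-positive, 5.31 CPM in single-positive and 4.03 CPM in parental cells. Without the single-positive cell described below, IFNL1 was at 0.833 CPM in single-positive cells, from 42 UMIs, which made that library the lowest instead of the highest. Its UMIs lay in the chosen cells in 122 of 123 cases in double-positive, 267 of 268 in single-positive and 246 of 257 in parental cells. A UMI of IFNL1 was present in 1.44% of DP, 0.697% of SP and 1.41% of parental cells. IFNB1, a type I interferon below the floor, had 26 UMIs in double-positive, 42 in single-positive and 23 in parental cells, and all of them lay in chosen cells. All 42 of the single-positive library were in that same cell. IFNL2 had 5 UMIs in DP, 1 in SP and 4 in parental cells and IFNL3 had 12 in DP and 0 in the other 2 libraries. IFNK had 1 UMI in DP, 7 in SP and 2 in parental cells, and IFNA1, IFNA2, IFNA5, IFNA13, IFNE, IFNW1 and IFNG had none in any library, which allows up to 0.0491 CPM in DP, 0.0595 in SP and 0.0470 in parental cells.

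Chemokines that interferon induces were held by few cells, and class I presentation genes were not. CXCL10 had 30.4 CPM in double-positive, 33.7 CPM in single-positive and 52.5 CPM in parental cells, CXCL11 had 29.6 CPM in DP, 22.7 in SP and 39.1 in parental cells, and CCL5 had 10.6 CPM in DP, 15 in SP and 14.0 in parental cells. These 3 chemokines, which attract T cells, were held by few cells in every library and were at least 9.73-fold higher in the chosen cells of each. Without the single-positive cell described below, single-positive cells had 20.1 CPM of CXCL10, 19.7 CPM of CXCL11 and 6.69 CPM of CCL5, so that each of the 3 was lowest there. CXCL9 was below the floor. Of the 16 class I presentation genes, 13 were spread in DP, 11 in SP and 13 in parental cells, and none was held by few cells or reached 2-fold in all 3 libraries. B2M, the light chain of class I molecules, was higher in chosen cells by 1.23-fold in DP, 1.27-fold in SP and 1.25-fold in parental cells, and TAP1, the peptide transporter, was 1.98-fold higher in DP, 2.15-fold in SP and 1.79-fold in parental cells.

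None of the 6 receptor genes and the 5 negative regulators of the signal was held by few cells, and none reached 2-fold in all 3 libraries. IFNAR1 had 20.8 CPM in double-positive, 20.9 CPM in single-positive and 19.6 CPM in parental cells, and IFNLR1, the receptor chain that type III interferon needs, had 1.14 CPM in DP, 1.23 in SP and 1.54 in parental cells. SOCS1, an inhibitor of the kinases, was higher in chosen cells by 2.25-fold in DP, 2.28-fold in SP and 1.69-fold in parental cells. Of 11 genes that sense nucleic acid or relay it, DHX58, a relative of RIG-I, was at least 2-fold higher in all 3 libraries, at 2.48-fold in DP, 5.15-fold in SP and 3.30-fold in parental cells, and it was held by few cells in the single-positive library. MAVS, TMEM173 (STING), MB21D1 (cGAS), TBK1 and IRF3 were within 0.897-fold and 1.30-fold in the chosen cells of every library.

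Outside the members, 71 other genes were at least 2-fold higher in the chosen cells of all 3 libraries. The 15 with the largest mean fold included IFNL1, the chemokines CCL5, CXCL10, CXCL11, CCL3 and CCL3L3, the NKG2D ligand RAET1L, the guanylate-binding protein GBP5 and PMAIP1, which encodes the pro-apoptotic protein NOXA. CCL3 differed between libraries, at 2.19-fold in DP (interval 0.978 to 4.43, from 10 UMIs in chosen cells), 65.4-fold in SP and 7.82-fold in parental cells. CCL3L3 was 34.9-fold higher in DP, from 19 UMIs in chosen cells, 273-fold in SP and 14.4-fold in parental cells. PMAIP1 stood at 443 CPM in chosen double-positive cells against 67.7 CPM in the rest, at 457 against 54.3 CPM in single-positive cells and at 334 against 65.9 CPM in parental cells. The keratin gene KRT6B was 7.37-fold higher in DP, 6.03-fold in SP and 6.18-fold in parental cells, and IL7R, the interleukin-7 receptor chain, was 4.84-fold higher in DP, 8.06-fold in SP and 7.01-fold in parental cells. RHEBL1, PRR15, TRANK1 and PDPN completed the 15.

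One single-positive cell held a large part of its library's signal. It had 67525 UMIs, of which 0.375% were mitochondrial, and its UMIs made up 39.9% of IFIT2 (1225 of 3069), 38.3% of RSAD2 (276 of 721) and 26.8% of OASL (1683 of 6272) in that library. It also held 274 of 1662 DDX58 UMIs and 1782 of 54275 ISG15 UMIs, but only 749 of 264352 UMIs of IFI27, which is spread. Of the ligand and chemokine UMIs of the library, this cell held 42 of 42 IFNB1, 226 of 268 IFNL1, 689 of 1701 CXCL10 and 421 of 758 CCL5 UMIs. It was the highest cell of its library for 32 of the 44 members, whereas the highest IFIT2 cell was the highest for 4 of 44 in the double-positive and for 4 of 44 in the parental library. That double-positive cell had 40322 UMIs and held 341 of 3249 IFIT2 and 23 of 26 IFNB1 UMIs, and the parental one held 300 of 3558 IFIT2 and 6 of 23 IFNB1 UMIs. The double-positive cell had 0 UMIs of RSAD2, CMPK2 and MX1, and the parental one had 3 of RSAD2, 1 of CMPK2 and 26 of MX1. Droplets were not screened for doublets, and cells of 50000 UMIs or more made up 30.5% of the chosen and 26.3% of the other single-positive cells.

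Between whole libraries, ISG20 was the only one of the 44 members to differ by 1.5-fold or more. The 44 members together came to 17297 CPM in double-positive, 14697 CPM in single-positive and 17510.0 CPM in parental cells. Double-positive against single-positive cells, 0 of 44 members were at least 1.5-fold higher and 0 lower, where 0.711% and 1.36% of all genes were, and the median log2 ratio of members was 0.08, against -0.03 for all genes. Double-positive against parental cells, 0 were higher and 0 lower, where 0.686% and 0.997% of all genes were, and the median was -0.07, against 0.03. Single-positive against parental cells, 0 were higher and 1 was lower, where 0.956% and 0.662% of all genes were, and the median was -0.14, against 0.06. Any 2 of these comparisons share 1 library.

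The member past 1.5-fold was ISG20, with 109.9 CPM in double-positive, 83.1 CPM in single-positive and 137 CPM in parental cells. Its log2 ratio of single-positive to parental was -0.72 (interval -0.77 to -0.66), and that of double-positive to parental was -0.31. ISG15 had 1385 CPM in double-positive, 1076 CPM in single-positive and 1455 CPM in parental cells, a log2 ratio of 0.36 for double-positive over single-positive and -0.44 for single-positive over parental. GBP4 had 13.2 CPM in double-positive, 9.51 CPM in single-positive and 13.3 CPM in parental cells, and log2 ratios of 0.48 for double-positive over single-positive and -0.48 for single-positive over parental. For all 3 genes the single-positive library was the lowest.

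The IFI27, IFI6, IFITM and BST2 genes were also lowest in single-positive cells. IFI27 had 6140.1 CPM in double-positive, 5239 CPM in single-positive and 6313 CPM in parental cells, IFI6 had 2859 CPM in DP, 2170.3 in SP and 2533 in parental cells, and IFITM3 had 2779 CPM in DP, 2440.3 in SP and 2815 in parental cells. IFITM1 had 1260.3 CPM in DP, 1041 in SP and 1369 in parental cells, IFITM2 had 254 CPM in DP, 221 in SP and 236 in parental cells, and BST2 had 610.4 CPM in DP, 565 in SP and 614 in parental cells. In these 6 genes the single-positive library was the lowest, and the double-positive library was above the parental in IFI6 and IFITM2. Across the alternatives described further on, the log2 ratio of single-positive to parental ran from -0.16 to 0.20 for IFITM2. It ran from -0.27 to 0.05 for IFITM3 and from -0.33 to -0.05 for IFI27. For IFITM2 and IFITM3, single-positive cells were thus not below parental cells in every alternative. IFI6, IFITM1 and BST2 were not followed across all of these alternatives. EIF2AK2 had 113 CPM in double-positive, 103 CPM in single-positive and 112 CPM in parental cells. The members' summed level also varied with cell depth inside the libraries: it was 19304 CPM in double-positive cells under 15000 UMIs and 15809 CPM in those of 50000 or more, and 19364 and 16402 CPM in the same parental bins. Single-positive cells, which were the deepest, had 14342 CPM and 14501 CPM in those bins. From 15000 to under 25000 UMIs the summed level was 19073 CPM in DP, 15040 in SP and 18390 in parental cells. From 25000 to under 35000 UMIs it was 17421 CPM in DP, 16437 in SP and 17160 in parental cells, where the libraries lay closest. From 35000 to under 50000 UMIs it was 16840 CPM in DP, 14378 in SP and 16851 in parental cells. The part of depth in the differences between libraries was not tested.

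In 34 of 44 members the double-positive library had a lower value than the parental, against 42.7% of all genes, and the interval was below 0 for 20 of the 44, against 16.9% of all genes. The interval takes every UMI as independent, which does not hold for members held by few cells. It also narrows with more UMIs, so the interval shares of members and of all genes are not like for like. Of the 10 role groups, 5 had 0 members above the parental level: the MX, viperin and nucleotide genes (4 members, median log2 ratio -0.32), the GBP genes (3, -0.22), the OAS genes with ISG20 (5, -0.21), the IFIT genes (4, -0.12) and the transcription factors (3, -0.07). In these groups the interval included 0 for IFIT5, OAS2, MX2, GBP4, STAT2, IRF1 and IRF9. Across the alternatives the ratio reached 0.10 for IFIT1, 0.35 for IFIT2, 0.30 for IFIT5, 0.26 for GBP4 and 0.09 for IRF9. It stayed below 0 for the other members of these groups that were followed across the alternatives. MX1 had 85.4 CPM in double-positive, 85.1 CPM in single-positive and 101 CPM in parental cells, and USP18 had 17.0 CPM in DP, 19.7 in SP and 22.0 in parental cells. OAS1 had 106 CPM in DP, 106 in SP and 123 in parental cells and OAS3 had 76.8 CPM in DP, 69.4 in SP and 82.5 in parental cells, while OAS2 had 50.6 CPM in DP, 51.7 in SP and 52.3 in parental cells. Of the sensors and PKR, 3 of 4 were above the parental level in double-positive cells (median log2 ratio 0.01), and the interval included 0 for all 4. IFIH1 had 28.0 CPM in DP, 29.6 in SP and 27.8 in parental cells and DDX60 had 34.8 CPM in DP, 31.1 in SP and 33.7 in parental cells. Across the alternatives the ratio of double-positive to parental fell to -0.09 for IFIH1, -0.02 for DDX60 and -0.02 for EIF2AK2. The transcription factors lay close together, with STAT2 at 17.6 CPM in DP, 19.3 in SP and 19.1 in parental cells, IRF1 at 80.6 CPM in DP, 83.2 in SP and 83.8 in parental cells and IRF9 at 7.93 CPM in DP, 8.03 in SP and 8.34 in parental cells.

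The remaining members had similarly small differences. IFI44 had 56.4 CPM in double-positive, 50.9 CPM in single-positive and 57.1 CPM in parental cells, and its neighbour IFI44L had 80.2 CPM in DP, 70.8 in SP and 86.4 in parental cells. UBE2L6, the conjugating enzyme for ISG15, had 158 CPM in DP, 148 in SP and 171 in parental cells, HERC5 had 19.6 CPM in DP, 17.8 in SP and 19.2 in parental cells, and HERC6 had 43.1 CPM in DP, 39.7 in SP and 41.0 in parental cells. GBP1 had 38.8 CPM in DP, 41.7 in SP and 45.0 in parental cells and GBP2 had 3.35 CPM in DP, 3.21 in SP and 4.30 in parental cells. PARP9 and DTX3L, partners encoded head to head in overlapping gene models, carry the same doubt over strand as RSAD2 and CMPK2. PARP9 had 52.8 CPM in DP, 48.1 in SP and 52.3 in parental cells, DTX3L had 44.0 CPM in DP, 49.1 in SP and 44.5 in parental cells, and PARP14 had 28.1 CPM in DP, 28.5 in SP and 25.7 in parental cells. SAMD9 had 128 CPM in DP, 109.6 in SP and 121 in parental cells, SAMD9L had 16.9 CPM in DP, 15.7 in SP and 18.1 in parental cells, and TRIM22 had 27.5 CPM in DP, 24.3 in SP and 29.2 in parental cells. SP100, a nuclear body protein, had 86.8 CPM in DP, 87.1 in SP and 95.3 in parental cells, XAF1, a pro-apoptotic factor, had 75.2 CPM in DP, 78.8 in SP and 78.2 in parental cells, and MX2 had 34.0 CPM in DP, 35.3 in SP and 35.3 in parental cells.

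**Figure D4:**
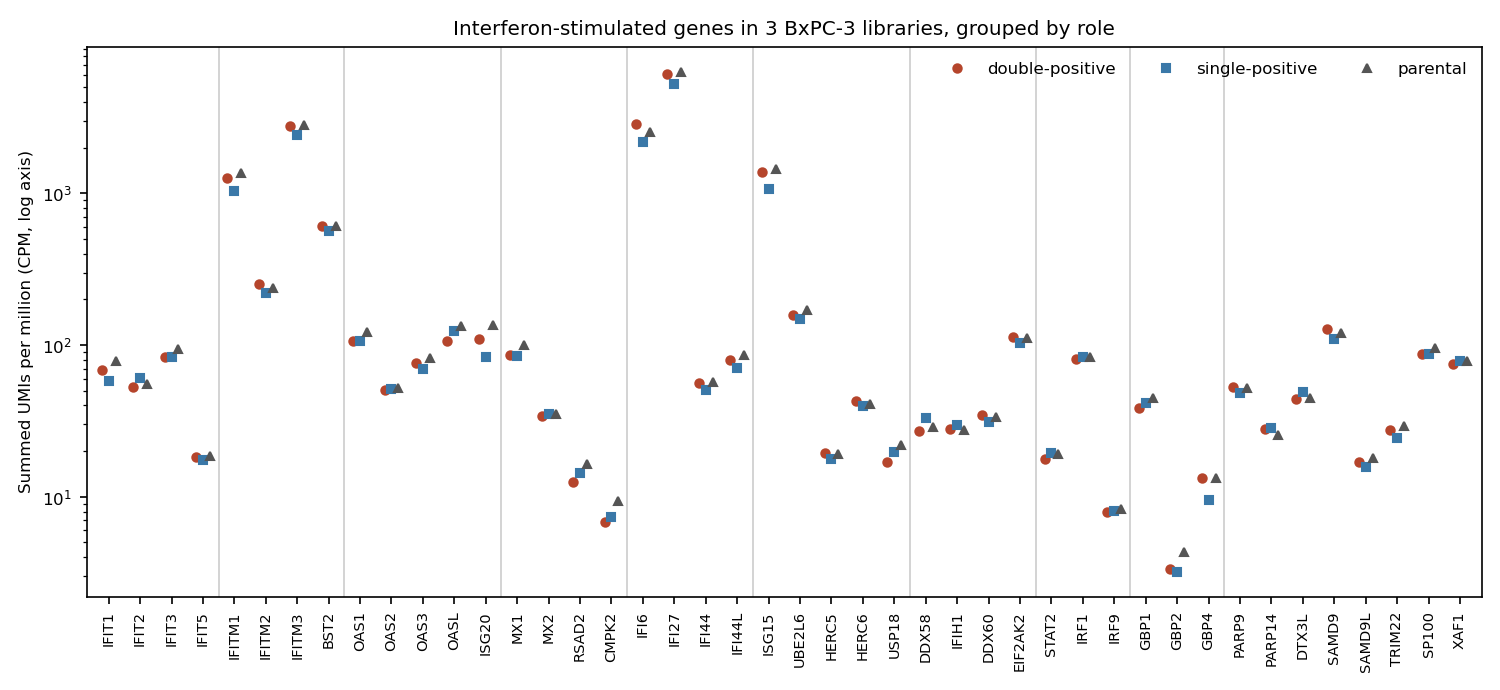
The level of each of the 44 members in the 3 libraries (vertical axis, CPM on a log scale), grouped by role with grey lines between groups, with 1 library per group and no error bar. The 3 points of a gene lie close together for every member, and ISG20 is the gene where single-positive (83.1 CPM) and parental cells (137 CPM) are more than 1.5-fold apart.

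Leaving out the one single-positive cell turned several of these ratios. IFIT2 was at 36.6 CPM in the remaining single-positive cells, so that its log2 ratio of single-positive to parental was -0.61 instead of 0.12, and that of double-positive to single-positive was 0.54 instead of -0.20. The single-positive to parental ratio of RSAD2 was -0.90 instead of -0.21, that of CMPK2 -0.60 instead of -0.36 and that of OASL -0.56 instead of -0.12. DDX58 had a ratio of -0.07 instead of 0.18. Without that cell 4 members, IFIT2, RSAD2, CMPK2 and ISG20, were at least 1.5-fold lower in single-positive than in parental cells, against 0.768% of all genes. Single-positive over parental, 42 of 44 had a ratio below 0 without that cell, against 36.5% of all genes, and 36 of 44 with it, against 36.4%. Double-positive over single-positive, 34 of 44 had a ratio above 0 without it, against 42.3% of all genes, and 26 of 44 with it, against 42.1%. That cell was picked for its IFIT2 and was the highest of its library for 32 of the 44 members. Leaving it out of that library alone therefore lowers most members there, which the shares of all genes do not allow for. These counts of signs are not given for the removal of such a cell from every library. When each library was left without its own cell with most IFIT2, 3 members, RSAD2, CMPK2 and ISG20, were at least 1.5-fold lower in single-positive than in parental cells, against 0.752% of all genes.

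**Figure D5:**
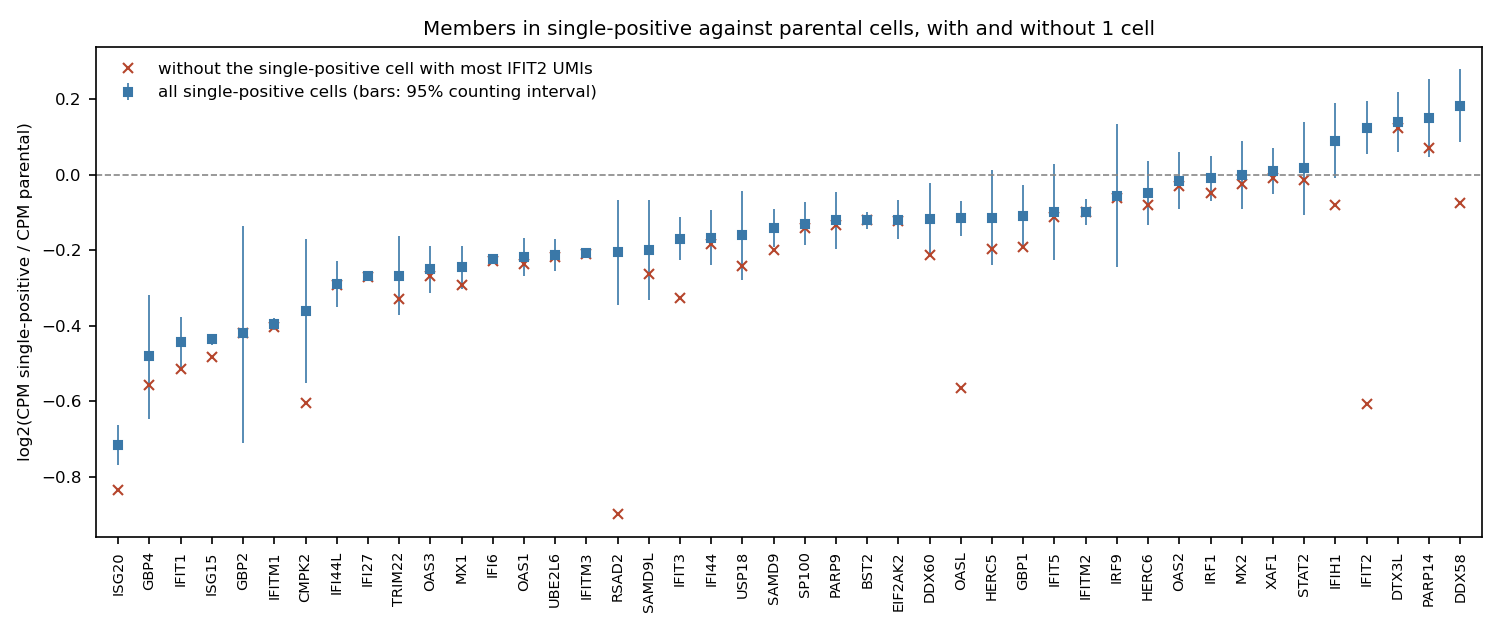
The log2 ratio of single-positive to parental CPM for each of the 44 members, with all single-positive cells (squares, bars for the 95% counting interval) and without the single-positive cell with most IFIT2 UMIs (crosses). The crosses of IFIT2 (-0.61), RSAD2 (-0.90), OASL (-0.56) and CMPK2 (-0.60) lie well below their squares, and those of IFI27 and BST2 lie on them.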

How the data were processed

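Per the labels, 3 droplet libraries of BxPC-3 cells (double-positive, single-positive, parental; 1 each) were made with the 10x 5' kit of version 2. The deposited values are UMI counts per gene and barcode, not normalized and not filtered for cells (737280 barcodes and 33694 features per library). The submitters' processing notes name Cell Ranger 4.0.0, Seurat 4.0.6 and GRCh38; the annotation and strand setting are not given in the sources used here. Positions come from GENCODE 29.

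Cells were barcodes with at least 6500 UMIs; they held 97.8% of 62517276 UMIs in the double-positive, 97.7% of 51637677 in the single-positive and 98.0% of 65107147 in the parental library. Counts were summed over cells and scaled to CPM. No mitochondrial limit was set, and no doublet caller was run, because cells enclosed in other cells could be removed with the doublets. Ratios have exact conditional binomial intervals, and shares of cells exact Clopper-Pearson intervals. A count of 0 was taken to allow up to 3 UMIs. For the share of IFIT-rich cells, each cell was thinned to 6500 UMIs. No gene was tested between groups. Concentration measures were tested on simulated data. The text names all members past the 1 CPM floor, genes of pathway lists (part of them is not reported here) and the 15 other genes with the largest mean fold in IFIT-rich cells. Members, lists and rules were chosen with earlier results of these data known. Alternatives covered scaling, weighting, cell limits, depth, ambient RNA and thresholds. The tools were matplotlib 3.10.9, pandas 2.3.3, scipy 1.17.1 and numpy 2.4.6 under Python 3.11.15.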

Additional observations from a re-analysis of the deposited data

How the results depend on the processing

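No paired analysis was possible because every group had 1 library. The median log2 ratio of members kept its sign in every alternative and every comparison. Double-positive over single-positive, it was 0.17 without cells of 50000 UMIs or more and 0.19 among cells of the shared range of 22974 to 32998 UMIs (701 double-positive, 142 single-positive and 628 parental cells). Single-positive over parental, it was -0.21 without the deep cells, -0.26 in the shared range, -0.21 without the single-positive cell with most IFIT2 UMIs and -0.21 without the cell with most IFIT2 UMIs of every library; the last 2 settings were added after seeing the data.

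Members at least 1.5-fold higher in double-positive than in single-positive cells numbered 1 with the mean of per-cell CPM (GBP4), 1 after thinning to 6500 UMIs (GBP4), 2 without deep cells, 3 in the shared range (IFIT2, RSAD2 and HERC5), 1 without cells under 0.5% mitochondrial UMIs (IFIT2) and 1 without the IFIT-rich cells (GBP4); with no expression floor 1 was lower (IRF7). Members lower in double-positive than in parental cells numbered 2 in the shared range (OASL and RSAD2) and 1 without the IFIT-rich cells (IFIT2). Members lower in single-positive than in parental cells numbered 2 by per-cell means, 3 after thinning, 4 without deep cells, 6 in the shared range, 5 without cells of low mitochondrial share, 2 without the IFIT-rich cells, 4 without the single-positive cell and 3 without the top cell of every library; with no floor 1 was higher (IRF7). Apart from the settings without a cell with most IFIT2 UMIs, the share of all genes past 1.5-fold was not taken in these alternatives. The counts are therefore no result about the members. The causes were not tested.

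Members held by few cells numbered 19 in double-positive (DP), 26 in single-positive (SP) and 18 in parental cells with an excess of 5 points, 4 in DP, 9 in SP and 4 in parental cells with 20 points, and 5 in each library without the IFIT-rich cells. With the top 5% of cells they numbered 19 in double-positive and 25 in single-positive cells. In single-positive cells they also numbered 9 after thinning, 10 in the shared range, 10 without cells of low mitochondrial share, 10 without the one cell and 10 without the top cell of every library. The share of all genes held by few cells was not taken in these alternatives, so these counts are no result about the members. The share of cells with at least 3 IFIT UMIs was 45.1% in DP, 44.3% in SP and 44.2% in parental cells without thinning; that with at least 2 was 19.3% in DP, 17.8% in SP and 23.7% in parental cells, and that with at least 5 was 4.90% in DP, 3.49% in SP and 6.23% in parental cells. In the shared range it was 5.63% in single-positive and 10.8% in parental cells, and chosen by MX1, OASL and RSAD2 it was 13.7% in double-positive cells. The cell limit of 3000 UMIs was not run for this share, since such cells lie below the thinning depth.

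Over 29 named members, 890 of 1015 ratios kept their sign across the alternatives and 125 turned it, and 294 moved outside their counting interval. These totals pool unlike settings. With a cell limit of 3000 UMIs, with one of 10000 UMIs and with 2% ambient RNA subtracted, all 87 ratios of each setting stayed inside their interval. In the shared range 63 moved outside it and 24 stayed inside. Depth limits the members with fewest UMIs: GBP2 had 205 in double-positive, 162 in single-positive and 274 in parental cells.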
